A study of Mus musculus with 6 samples.

Results

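Retinoids are the vitamin A derivatives that cells turn into retinoic acid, and 9 genes that carry, make, limit or sense them are described here across islets with and without the RNA-binding protein YTHDC1 in beta cells. They were taken by gene symbol, 9 of the 54532 genes in the table. Rbp4 encodes the plasma retinol carrier, Rdh10 and Dhrs3 the enzymes that oxidise retinol and reduce retinaldehyde, Aldh1a1, Aldh1a2 and Aldh1a3 the retinaldehyde dehydrogenases, and Rara, Rarb and Rarg the retinoic acid receptors.

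RNA was taken from pancreatic islets of mice aged 7 weeks, 3 libraries of genotype Ythdc1flox/flox (control: both alleles floxed, no deletion named) and 3 of genotype Ythdc1-betaKO (bKO: Ythdc1 deleted in beta cells). Poly(A) RNA was sequenced in pairs of reads. The labels call the replicates independent and biological; the Cre driver, the strain, the sex and the number of mice behind a library are not given in the sources used here. Ythdc1 was at 5.76, 6.46 and 6.18 FPKM (fragments per kilobase of gene, scaled by a factor for each library that does not follow its total reads) in control and at 3.81, 3.79 and 3.87 in the bKO libraries, so all 3 bKO libraries were lower, although free-text notes on bKO replicates 2 and 3 name Ythdc2 and Ythdc3. Each library held 16863329 to 18240339 reads, as recovered from the FPKM. The beta-cell genes Ins1 and Ins2 were the most abundant markers of the islet, Ins2 at 134303 ± 6487 FPKM in control and 84753 ± 3347 in bKO (SD, n = 3). Islets are mixed tissue, so in every value below fewer cells of a type and less RNA per cell cannot be told apart.

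Retinol reaches cells bound to a carrier and is oxidised stepwise, first by retinol dehydrogenases to retinaldehyde and then, irreversibly, by the ALDH1A enzymes to retinoic acid. Retinoic acid enters the nucleus, binds a retinoic acid receptor (RAR) paired with a retinoid X receptor (RXR), and turns on genes near their DNA elements, among them genes that destroy it. In the pancreas retinoic acid is best known for its part in early development, and ALDH1A3 is known in adult islets as a mark of failing beta cells.

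Of the 9 genes, Aldh1a3 alone moved by a large factor. Its mRNA was scarce in control islets and rose 28.9-fold in bKO, which left it second to Rbp4 among the 9. Rara fell by 23.8%, while Rbp4, Rdh10, Dhrs3 and Rarg did not pass the test. Aldh1a1, Aldh1a2 and Rarb were too low to test in either genotype. Across all genes, limma on log2(FPKM + 1) with Benjamini-Hochberg adjustment called 3192 of 15717 tested genes, or 20.3%, at an adjusted p under 0.05. Of the 9 genes, 6 passed the filter of at least 0.5 FPKM in at least 3 libraries, and 2 of these were called: Aldh1a3 among the 8.96% of tested genes called higher and Rara among the 11.4% called lower. Aldh1a3 reached that filter only through its bKO libraries, since 2 of its 3 control libraries were at or above 0.5 FPKM, so the count says little about the 9 as a set. Libraries of the 2 genotypes did not overlap for 4 of the 6 (Aldh1a3, Rara, Rarg and Rbp4), against 40.1% of all tested genes.

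**Figure D1:**
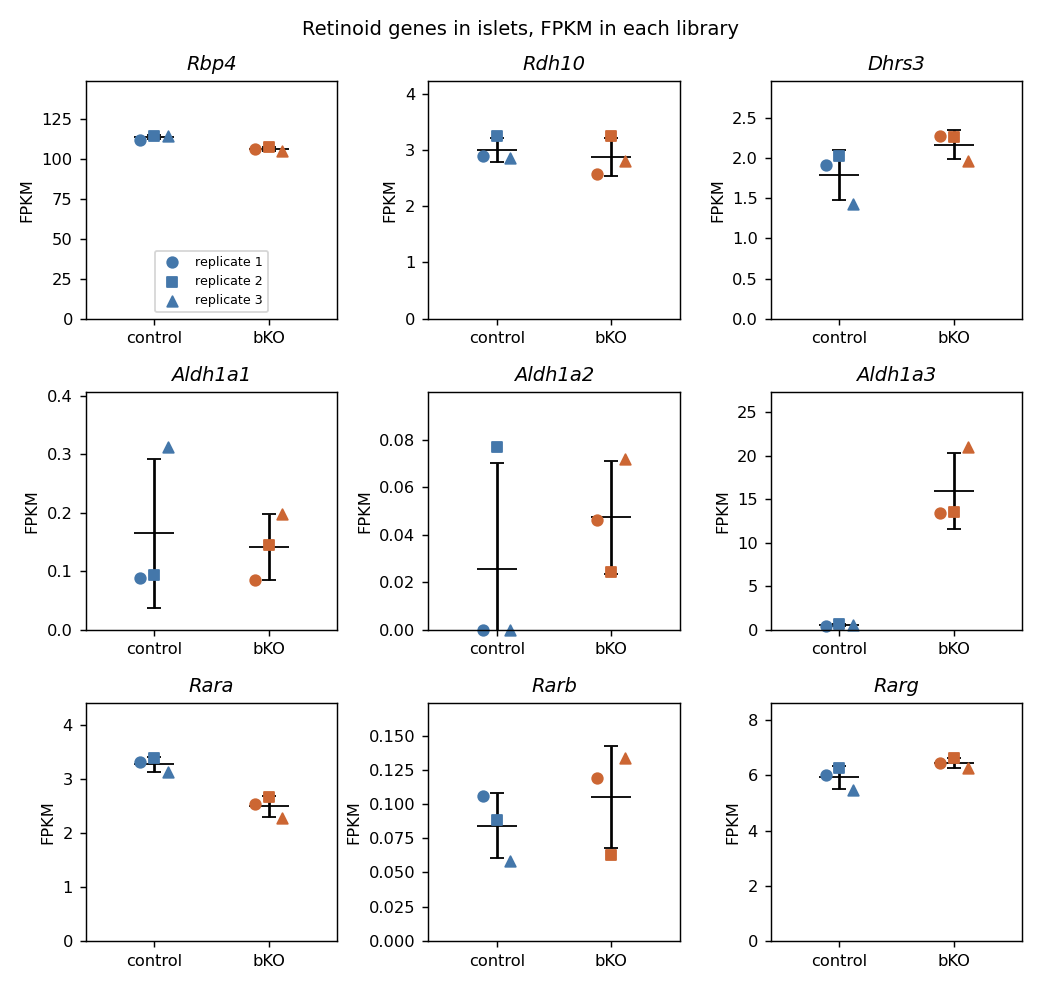
FPKM of each retinoid gene (vertical axes, each from 0) in the 3 control and 3 bKO libraries, with one symbol per replicate number and bars for the mean ± SD; an SD that reaches below 0 is drawn to 0. Aldh1a3 runs from 0.444 to 0.691 FPKM in control and from 13.4 to 21.0 in bKO, while the panels of Aldh1a1, Aldh1a2 and Rarb stay under 0.32 FPKM in all libraries.

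Rbp4, the secreted carrier that brings retinol to tissues, was by far the most abundant of the 9 (ENSMUSG00000024990, chromosome 19, 38116620 to 38125321, GRCm38). It was at 111.9, 114.4 and 114.1 FPKM in control and at 106.1, 107.2 and 104.6 in the bKO libraries. All bKO libraries were below all control libraries, by a narrow margin. The log2 difference was -0.10 (SE 0.032, 95% interval -0.17 to -0.02, limma adjusted p = 0.074), so it missed the threshold. Its sign also turned when libraries were scaled by their total (0.08) and with quantile normalization (0.05). In both genotypes its mean lay above that of 98.8% of tested genes.

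Neither Rdh10 nor Dhrs3 was called. Rdh10, which oxidises retinol to retinaldehyde (ENSMUSG00000025921, chromosome 1, 16105774 to 16133734), was at 2.90, 3.25 and 2.85 FPKM in control and at 2.58, 3.25 and 2.81 in the bKO libraries. The groups overlapped, and the log2 difference was -0.05 with a 95% interval from -0.25 to 0.16 (limma adjusted p = 0.75). Its sign turned with libraries scaled by their total (0.09) and without bKO replicate 1 (0.01). Dhrs3, which works the other way and returns retinaldehyde to retinol (ENSMUSG00000066026, chromosome 4, 144892827 to 144928209), was at 1.91, 2.02 and 1.43 FPKM in control and at 2.28, 2.26 and 1.96 in the bKO libraries. Only control replicate 2 reached into the bKO range. Its log2 difference was 0.19 with a 95% interval from -0.06 to 0.44 (limma adjusted p = 0.26). Dhrs3 is itself known to be induced by retinoic acid.

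Aldh1a3 lies on chromosome 7, 66390890 to 66427517 (ENSMUSG00000015134, minus strand), and no other annotated gene shares its exons. It was at 0.444, 0.691 and 0.521 FPKM in control and at 13.4, 13.6 and 21.0 FPKM in bKO. Every bKO library was far above every control library, and bKO replicate 3 stood above the rest of its group. Means were 0.552 ± 0.13 and 15.98 ± 4.3 FPKM (SD, n = 3). The reads behind these values were 33, 55 and 39 in control and 1185, 1137 and 1793 in bKO, which scales to a 28.8-fold ratio; counting error alone puts it between 24.1 and 34.6 (95%, exact binomial). On the log2(FPKM + 1) scale, which understates changes of low genes, the rise was 3.43 (SE 0.17, 95% interval 3.02 to 3.83, limma adjusted p = 0.00015). It ranked 5 of 15717 tested genes by that change and 4 of 12461 protein-coding ones. The mean of Aldh1a3 exceeded that of 6.55% of tested genes in control and of 84.0% in bKO.

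**Figure D2:**
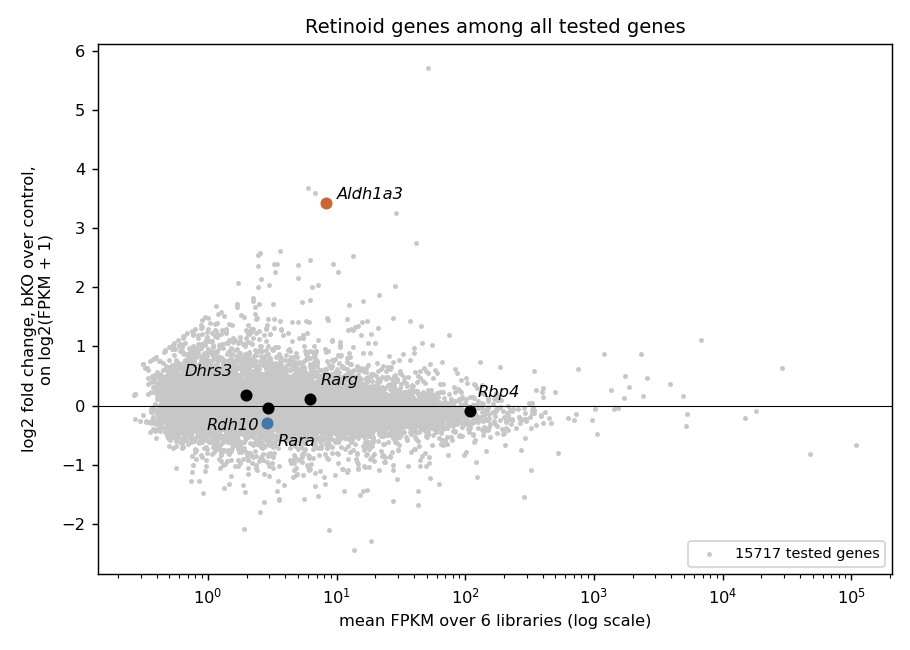
The log2 fold change on log2(FPKM + 1), bKO over control, of the 15717 tested genes (grey) against their mean FPKM over 6 libraries on a log axis, with the 6 tested retinoid genes named; orange marks a called rise, blue a called fall and black no call. Aldh1a3 stands at 3.43 near the top of the cloud, and the other 5 lie between -0.29 and 0.19 inside it.

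The other retinaldehyde dehydrogenases stayed close to nothing. Aldh1a1 (ENSMUSG00000053279, chromosome 19, 20492715 to 20643462) was at 0.0881, 0.0941 and 0.313 FPKM in control and at 0.0844, 0.145 and 0.197 in the bKO libraries, from 40 and 39 reads in all. The scaled read ratio of 0.865 had a 95% range of 0.542 to 1.38 from counting error. Reads of Aldh1a1 may be shared with its close copy Aldh1a7, which was itself at 0.09 FPKM or below in every library, so both values are uncertain. Aldh1a2, the main enzyme of the embryo (ENSMUSG00000013584, chromosome 9, 71215789 to 71296243), had 0, 3 and 0 reads in control and 2, 1 and 3 in bKO, and at this depth no difference was detectable.

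Because FPKM is per length, the levels of the 3 enzymes can be added. Their sum was 0.743 ± 0.18 FPKM in control and 16.2 ± 4.4 in bKO. Aldh1a3 made up 83.4%, 80.2% and 62.5% of that sum in control and 99.0%, 98.8% and 98.7% in bKO. Its value was thus the highest of the 3 in each control library too. The lowest share belonged to control replicate 3, which held 39 reads of Aldh1a3 and 25 of the 40 control reads of Aldh1a1. With so few reads, the lead of Aldh1a3 in that library is uncertain. Tests of the sum and of the share each gave p = 0.1 (two-sided exact permutation, the smallest that 3 against 3 libraries allow), and 0.114 after adjustment over the 8 such tests made.

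Markers of other islet cells moved as well. Both PP-cell hormone genes were higher in bKO, Ppy rising from 4324 ± 784 to 9330 ± 1340 FPKM and Pyy from 1635 ± 174 to 2977 ± 251 FPKM. Their sum ran from 5336 to 7062 FPKM in control and from 11071 to 14102 in bKO. Ppy was called in 13 of 14 other settings, but not with no filter (limma adjusted p = 0.15). In bKO replicate 3, the library with the most Aldh1a3, Ppy (10843 FPKM) and Pyy (3259 FPKM) were also highest of the bKO libraries. The beta-cell factor Mafa (124.5 FPKM, against 152.2 and 159.5) was lowest there, as were the beta-cell markers Ins1, Slc2a2, Pdx1 and Ucn3. The beta-cell markers Ins2, Iapp and Nkx6-1 were instead lowest in bKO replicate 1. Of 8 beta-cell markers 5 fell and 1 rose, and their sum ran from 201005 to 222730 FPKM in control and from 130927 to 140038 in bKO. Ins1 and Ins2 make up most of that sum, and Ins2 was called in 5 of 14 other settings and Ins1 in 10 of 14, neither of them with quantile normalization (-0.27 for Ins1 and 0.00 for Ins2). Of 9 macrophage markers (8 tested) 3 fell, with sums of 107 to 121 FPKM in control and 65.0 to 81.0 in bKO. Of 8 endothelial markers 4 rose (184 to 221 against 232 to 237 FPKM). Of 6 Schwann cell markers (5 tested) 3 rose, Ngfr, Foxd3 and Cdh19 (sums of 2.80 to 4.68 against 5.56 to 7.02 FPKM). These 3 passed the filter only through their bKO libraries, with 0 control libraries at 0.5 FPKM, so they had to be higher. None of 6 duct (4 tested) or 4 delta-cell (3 tested) markers was called, and 1 each of 6 alpha-cell, 10 acinar and 10 mesenchymal (9 tested) markers rose. For comparison, 8.96% of all tested genes were called higher and 11.4% lower. No marker in these lists was at 0 in every library. The part of these cells in the rise of Aldh1a3 was not tested.

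Among 10969 protein-coding genes with a mean of at least 1 FPKM and no provisional Gm or Rik name, those whose log2(FPKM + 1) followed Aldh1a3 most closely over the 6 libraries included Tmod2, Ern1, Scn3a and BC030499, with Pearson's r of 0.9986 to 0.9993. The libraries form 2 clusters by genotype and share their scaling, so this is a description of likeness. Tmod2, a tropomodulin that caps actin filaments, went from 24.9 ± 0.46 to 65.2 ± 5.4 FPKM. Ern1, the stress sensor IRE1 of the endoplasmic reticulum, went from 29.7 ± 0.42 to 41.9 ± 1.1 FPKM. Scn3a, a voltage-gated sodium channel, went from 2.96 ± 0.086 to 5.74 ± 0.39 FPKM, and BC030499 from 0.116 ± 0.059 to 1.94 ± 0.20 FPKM. With controls at 0.176 FPKM or below, BC030499 passed the filter only through its bKO libraries, so it had to be higher in bKO. In each of these genes, as in Aldh1a3, bKO replicate 3 was the highest library. Choosing genes by their r with Aldh1a3 over the same libraries favours such a shared peak, so it adds no further likeness. An r over 0.99 was reached by 58 of the 10969 genes.

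Rara and Rarg were expressed at a few FPKM and the third receptor was nearly silent. Rara (ENSMUSG00000037992, chromosome 11, 98927818 to 98974942) was at 3.32, 3.39 and 3.12 FPKM in control and at 2.54, 2.67 and 2.28 in the bKO libraries. All bKO libraries were lower (log2 difference -0.29, SE 0.071, limma adjusted p = 0.030). The call was fragile. It ended when libraries were scaled by totals (-0.16, limma adjusted p = 0.13), with no filter (adjusted p = 0.073), and without control replicate 1 or 2 or any of the bKO libraries (-0.33 to -0.25, limma adjusted p from 0.051 to 0.090).

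Rarg, the most abundant receptor (ENSMUSG00000001288, chromosome 15, 102234938 to 102257517), was at 6.03, 6.28 and 5.47 FPKM in control and at 6.44, 6.63 and 6.28 in the bKO libraries. The groups just missed each other, control replicate 2 lying beside bKO replicate 3, and the log2 difference was 0.11 (95% interval -0.04 to 0.25, limma adjusted p = 0.27). When libraries were scaled by totals it passed the test as a rise of 0.26 (limma adjusted p = 0.017), while the median of all tested genes moved from -0.01 to 0.13 under that scaling. Rarb (ENSMUSG00000017491, chromosome 14, 16430839 to 16819156) had 9, 8 and 5 reads in control and 12, 6 and 13 in bKO, which is 0.134 FPKM at most. Even these reads are uncertain, because 1793 exon bases of Rarb are shared with Top2b on the other strand and no strand setting is given for the counting.

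Together the receptors came to 9.29 ± 0.57 FPKM in control and 9.05 ± 0.33 in bKO (two-sided exact permutation p = 0.6), and scaling by library totals turned the difference to 0.894 FPKM higher in bKO. The balance between them differed between the groups of libraries. Rara gave 35.1%, 34.7% and 36.1% of the receptor sum in control and 27.9%, 28.5% and 26.2% in bKO, groups that did not overlap (exact permutation p = 0.1, adjusted 0.114). This share does not depend on how libraries are scaled. On the log2(FPKM + 1) scale the change of Rara was below that of Rarg by 0.40 (exact permutation p = 0.1, adjusted 0.114). Both receptor balance tests were chosen after the values were seen.

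In order of level in control, Rbp4 stood first, then Rarg, Rara, Rdh10, Dhrs3, Aldh1a3, Aldh1a1, Rarb and Aldh1a2. Rara and Rdh10 overlapped each other, and so did neighbours from Aldh1a1 down. In bKO Aldh1a3 moved from the sixth place to the second, above Rarg in every library, and Rdh10 passed Rara, which it still overlapped.

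Other genes that supply and clear retinoids were read from lists of known pathway members. Of 16 genes of retinoid uptake, binding and storage, 6 passed the filter, 1 rose and 1 fell. That made 2 of the 6 called, against 20.3% of all tested genes. The median log2 change of the 6 was 0.06, against -0.01 for all tested genes. Crabp1 and Crabp2, the retinoic acid carriers, and Rpe65 were listed at 0 in all libraries. Bco1, which splits beta-carotene into retinaldehyde, was at 3.61, 2.72 and 3.11 FPKM in control and at 4.50, 4.75 and 4.10 in the bKO libraries, without overlap, and rose by 0.40 (log2; SE 0.095, limma adjusted p = 0.028). Rbp7, a cellular retinol-binding protein known from endothelium and fat, fell from 6.28 ± 0.86 to 4.55 ± 0.50 FPKM (-0.39, limma adjusted p = 0.041), beside endothelial markers of which 4 of 8 rose; their part in this was not tested. Both calls were fragile. Bco1 no longer passed once control replicate 2, control replicate 3, bKO replicate 1 or bKO replicate 2 was left out (0.32 to 0.40), or with no filter. Rbp7 no longer passed with voom (-0.46, limma adjusted p = 0.12), with no filter, when scaled by library totals (-0.24), or once control replicate 1, control replicate 2, bKO replicate 1 or bKO replicate 3 was left out (-0.43 to -0.30).

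Dhrs4 and Adh1, enzymes that act on retinol or retinaldehyde among other substrates, fell. Of 20 other retinol and retinaldehyde oxidoreductases, 8 passed the filter, 2 fell and 0 rose, with a median of -0.06, so the called share was near the 20.3% of all tested genes. Of the 20, 4 (Rdh8, Rdh19, Sdr16c5 and Sdr16c6) were listed at 0 throughout. Dhrs4, a peroxisomal reductase that can turn retinaldehyde back into retinol, was at 25.9, 24.5 and 23.1 FPKM in control and at 11.9, 11.9 and 10.4 in the bKO libraries. It fell to 0.465 of its control mean (log2 difference -1.04, SE 0.066, limma adjusted p = 0.00027). Adh1, an alcohol dehydrogenase that can oxidise retinol, was at 46.1, 41.8 and 39.0 FPKM in control and at 27.3, 30.2 and 26.7 in the bKO libraries, and fell by 0.57 on the log2 scale (limma adjusted p = 0.0030). Both kept their call in each of 14 other settings. Adh1 shares 136 exon bases with an antisense gene at 1.14 FPKM or below.

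**Figure D3:**
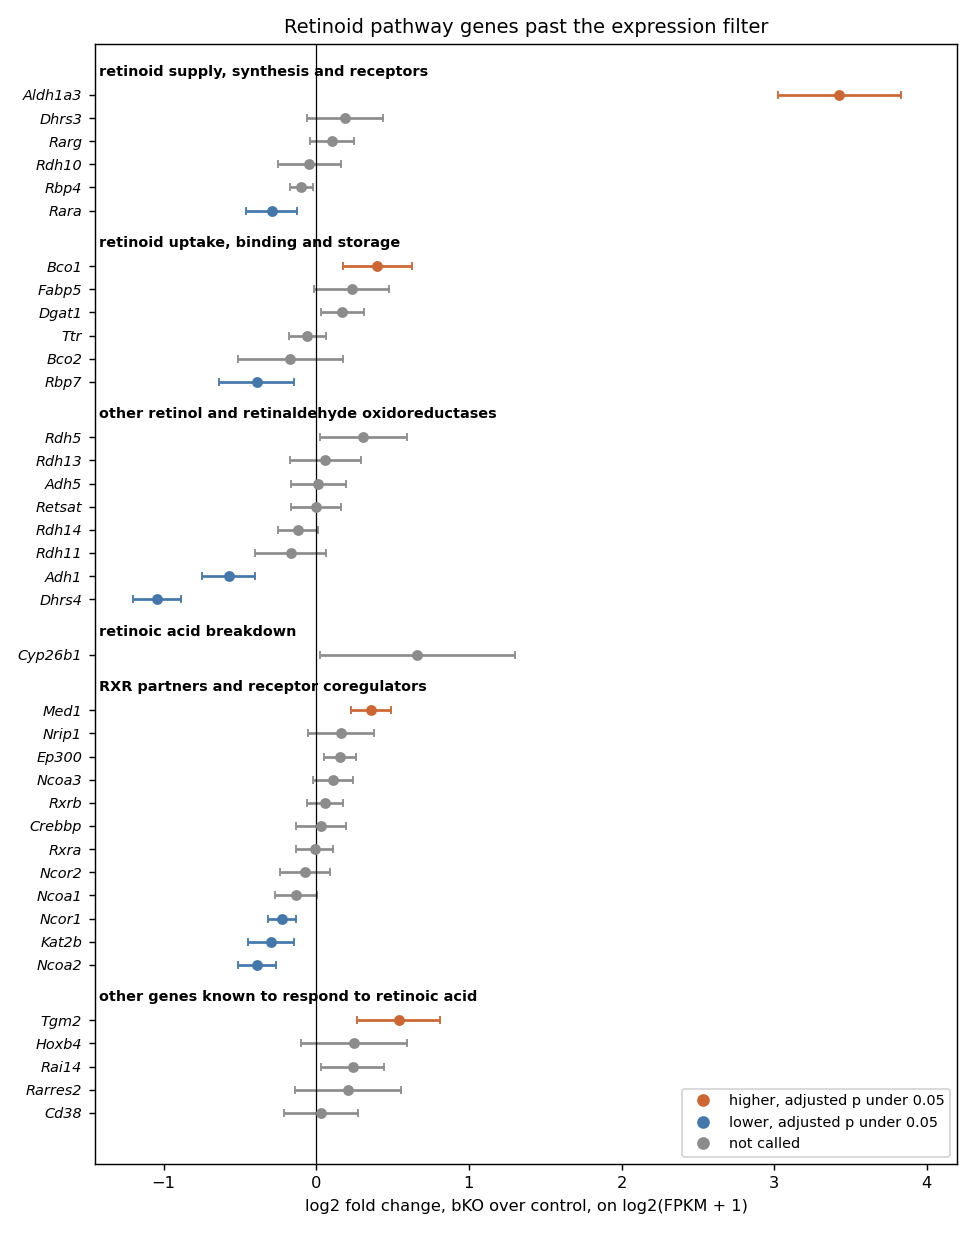
Log2 fold change on log2(FPKM + 1), bKO over control, with limma 95% intervals, of the tested retinoid genes by role; orange marks a called rise, blue a called fall and grey no call at an adjusted p of 0.05, and a gene of more than one list is drawn once. Aldh1a3 at 3.43 stands apart from the others, which lie between -1.04 (Dhrs4) and 0.66 (Cyp26b1); scaling by library totals turns the sign of 8 of the 38 genes drawn, Rbp4, Rdh10 and Rdh14 among them, none of which is called.

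Retinoic acid is cleared by the CYP26 enzymes, and Rarb and Cyp26a1 are textbook targets that it switches on through direct repeats in their promoters. To show these elements beside the levels, promoter windows from RefSeq (GRCm38.p6, 250 bases before to 50 after each start) were searched on both strands for the half-site AGGTCA or one of its forms AGTTCA or GGGTCA or GGTTCA, with one half-site following another in the same direction, as direct repeats with 1 (DR1), 2 (DR2) or 5 (DR5) bases between. Windows were matched for 7 of the 9 genes, all but Aldh1a3 and Rdh10, and for 67 of 90 pathway genes. Of all 32851 windows, 0.222% held a DR1, 0.268% a DR2 and 0.0974% a DR5. The pathway genes with a match are printed 5′ to 3′ on the gene's strand, as the 120 bases before the start, with the repeat in capitals.
Rarb, DR5, chr14:16575477-16575596, minus strand: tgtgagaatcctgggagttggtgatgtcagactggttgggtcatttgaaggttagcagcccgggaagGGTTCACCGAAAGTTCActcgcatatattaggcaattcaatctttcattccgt
Cyp26a1, DR5 read from the other strand, chr19:37697688-37697807, plus strand: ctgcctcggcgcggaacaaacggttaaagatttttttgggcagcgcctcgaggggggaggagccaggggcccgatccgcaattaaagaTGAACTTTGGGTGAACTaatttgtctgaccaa
Bco1, DR1 read from the other strand, chr8:117095745-117095864, plus strand: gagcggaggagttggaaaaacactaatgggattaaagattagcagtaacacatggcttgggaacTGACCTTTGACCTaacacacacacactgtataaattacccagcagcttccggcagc

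The repeat of Rarb ends 37 bases before the start, that of Cyp26a1 16 and that of Bco1 44. A match is a description of letters. No factor was measured on these promoters. The Rarb window lies inside the gene span of the table, so it belongs to an inner start. DR5 is the spacing RAR with RXR is best known to bind, and DR1 one that RXR binds with other partners.

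Both genes with a DR5 in this window were at the bottom of the range in either genotype. Rarb had 22 reads in all control libraries and 31 in bKO, which scales to a ratio of 1.25 and, by counting error, to between 0.701 and 2.27 (95%, exact binomial). Cyp26a1 had 2, 0 and 2 reads in control and 0 in each bKO library. No rise of either was detectable at this depth, though the interval of Rarb holds ratios up to 2.27. Cyp26c1 had 5 reads in control and 2 in bKO.

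Cyp26b1 was the one clearing enzyme with a measurable level. It was at 1.64, 3.52 and 1.12 FPKM in control and at 3.11, 3.50 and 4.40 in the bKO libraries. Control replicate 2 lay among the bKO libraries, the other controls well below. The log2 difference was 0.66 (SE 0.27, limma adjusted p = 0.13). It was called in only 2 of 14 other settings. Without control replicate 2 it passed the test at 0.97 (limma adjusted p = 0.014), and with voom on recovered reads at 0.94 (adjusted p = 0.0018). It did not pass without control replicate 1 (0.58, limma adjusted p = 0.28) or control replicate 3 (0.43, adjusted p = 0.27). Scaling by library totals did not bring a call either (0.79, limma adjusted p = 0.065).

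Of 18 other genes known to respond to retinoic acid, 7 passed the filter, 1 rose and 0 fell, against 20.3% of all tested genes called. Their median log2 change was 0.24, against -0.01 for all tested genes. Of the 7, Rarres2 passed the filter only through its bKO libraries and Hoxb4 with 1 control and 2 bKO libraries. Cyp26b1 and Nrip1 are counted in other lists as well. Crabp2, Hoxb1, Cdx1 and Stra8 were listed at 0. The 1 called rise was that of Tgm2, transglutaminase 2, from 1.35, 1.73 and 1.04 FPKM to 2.33, 2.49 and 2.46 (0.54, SE 0.11, limma adjusted p = 0.019). The call was lost with no filter (limma adjusted p = 0.056) and without control replicate 1 or any bKO library (0.53 to 0.56, limma adjusted p from 0.054 to 0.060). Tgm2 also shares 370 exon bases with Rprd1b on the other strand. Rai14 averaged 0.965 ± 0.081 FPKM in controls against 1.32 ± 0.094 (limma adjusted p = 0.10), and Nrip1, a corepressor, 2.03 ± 0.23 against 2.38 ± 0.22 (adjusted p = 0.25).

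Among partners and coregulators of the receptors, calls went both ways. Of 13 such genes, 12 passed the filter, 1 rose and 3 fell, with a median of 0.01. That made 4 of the 12 called, against 20.3% of all tested genes. The main RXR partners differed by less than the test could call, Rxra averaging 9.31 ± 0.45 FPKM in controls against 9.23 ± 0.28 (limma adjusted p = 0.91), and Rxrb 13.7 ± 0.63 against 14.3 ± 0.52 (adjusted p = 0.46). Rxrg had 14 reads in control and 18 in bKO. Med1, a Mediator subunit that nuclear receptors contact, rose from 5.51 ± 0.33 to 7.35 ± 0.12 FPKM (0.36, limma adjusted p = 0.0063). Ncoa2, a coactivator, fell from 8.33 ± 0.12 to 6.14 ± 0.33 FPKM (-0.39, limma adjusted p = 0.0039). Ncor1, a corepressor, fell by 0.22 and Kat2b, an acetyltransferase, by 0.30 on the log2 scale. Scaling by library totals ended both of these calls (-0.05 and -0.13). The call of Ncor1 also ended with quantile normalization (-0.14), and that of Kat2b once control replicate 1, bKO replicate 2 or bKO replicate 3 was left out (-0.28 to -0.25).

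Within the wider aldehyde dehydrogenase superfamily, whose members clear many aldehydes, Aldh1a3 ranked 13 of 21 genes by mean FPKM in control and 3 of 21 in bKO, behind Aldh18a1 and Aldh9a1. Its share of the summed FPKM of the 21 was 0.363%, 0.575% and 0.470% in control and 10.1%, 9.91% and 14.4% in bKO (exact permutation p = 0.1, adjusted 0.114; chosen after the values were seen). Of the 18 outside the ALDH1A retinaldehyde enzymes, 12 passed the filter, 4 rose and 2 fell, with a median of -0.07. That made 6 of the 12 called, against 20.3% of all tested genes. Aldh1l2, the mitochondrial enzyme of folate metabolism, rose from 5.42 ± 0.077 to 11.1 ± 1.2 FPKM (0.91, SE 0.077, limma adjusted p = 0.00067) and was called in all 14 other settings.

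The other called members of the superfamily changed less. Aldh18a1, which makes a proline precursor, rose from 27.3 ± 0.88 to 32.5 ± 1.7 FPKM, and Aldh6a1, of valine breakdown, from 6.96 ± 0.56 to 8.60 ± 0.33. Aldh5a1, of GABA breakdown, fell by 0.30 on the log2 scale, to 6.30 ± 0.29 FPKM in bKO. Aldh3b1 rose by 0.49 and Aldh3a2, which oxidises fatty aldehydes, fell by 0.22 on the log2 scale. None of these 5 calls held in all settings. Without bKO replicate 2 the values were 0.23 for Aldh18a1, 0.28 for Aldh6a1, -0.28 for Aldh5a1, 0.40 for Aldh3b1 and -0.22 for Aldh3a2, none past the threshold. The calls also ended without bKO replicate 3 for Aldh18a1 (0.22), Aldh6a1 (0.25) and Aldh5a1 (-0.29), without control replicate 1 for Aldh6a1 (0.30), Aldh5a1 (-0.27), Aldh3b1 (0.51) and Aldh3a2 (-0.20), and without bKO replicate 1 for Aldh6a1 (0.29), Aldh3b1 (0.48) and Aldh3a2 (-0.18). Leaving out control replicate 3 ended that of Aldh3b1 (0.39) and control replicate 2 that of Aldh3a2 (-0.20), and scaling by library totals those of Aldh5a1 (-0.15) and Aldh3a2 (-0.05). With no filter the calls of Aldh6a1, Aldh3b1 and Aldh3a2 ended, and with quantile normalization that of Aldh3a2.

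**Figure D4:**
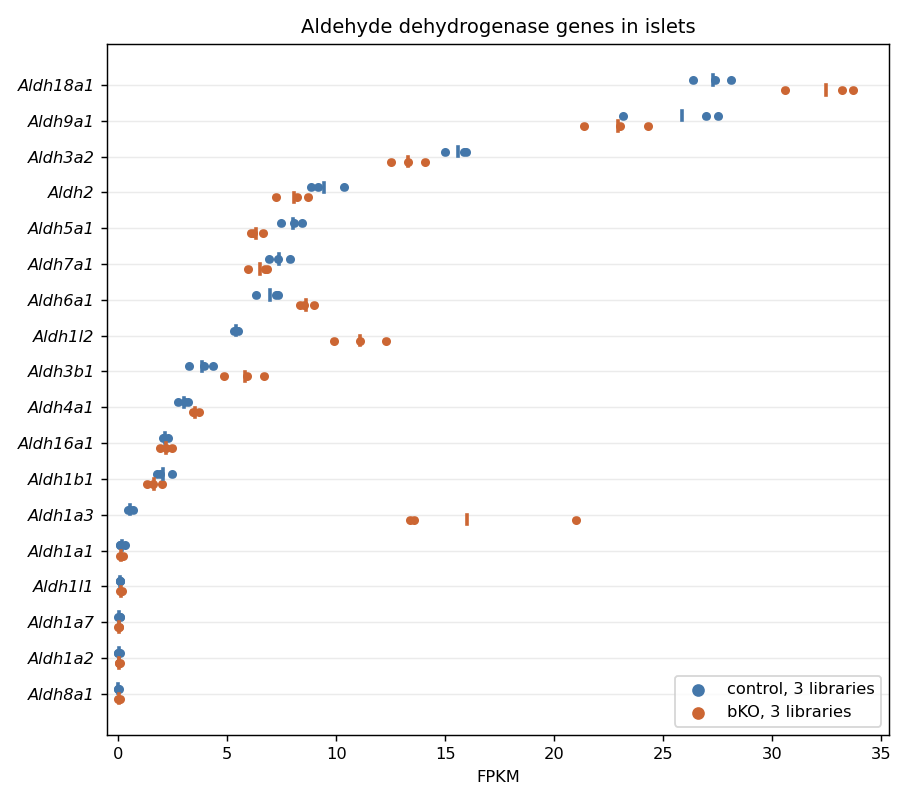
FPKM of 18 aldehyde dehydrogenase genes with at least 1 read (horizontal axis, from 0) in control and bKO libraries; points are libraries and short bars group means, and genes are ordered by control mean. Aldh1a3 lies at 0.552 FPKM on average in control and at 15.98 in bKO, and Aldh1l2 at 5.42 and 11.1.

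Taking the lists outside the 9 together, 44 of 81 genes passed the filter and 15, or 34.1%, were called, 7 higher and 8 lower, against 20.3% of all tested genes. Their median log2 change was 0.02. The lists were drawn up with results of these data known, and the share was not tested against other genes.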

How the data were processed

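Poly(A) RNA of islets was sequenced in 3 control and 3 bKO libraries; per the labels' design text, the authors used HISAT2 2.0.5 for alignment to GRCm38 and featureCounts 1.5.0-p3 for counting. CASAVA and DESeq2 1.20.0 appear, without a role, in the submitters' processing notes. The deposited values are FPKM made by the authors, scaled by a factor for each library that does not follow its total. FPKM times the deposited gene length, divided by its smallest value above 0 in each library, was whole within 0.01 for 100% of values above 0, which gave the reads; 0 columns belonged to other samples.

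Each gene's log2(FPKM + 1) was fitted with limma 3.58.1 in R 4.3.3, control against bKO without covariates and with a mean-variance trend, after a filter of 0.5 FPKM in 3 libraries. P-values were adjusted over all 15717 tested genes. The step was also run on simulated reads with the same replicate spread for every gene and changes planted only in well-covered genes. That run does not cover low genes, and no result above rests on it. Sums and shares were compared with two-sided exact permutation tests (scipy 1.17.1). Genes, lists and rules were chosen with earlier results of these data known: the 9 genes, up to 4 genes of each list by adjusted p, and the 5 genes most like Aldh1a3, of which 1 is not reported here; further called genes were named after their values were seen. Gene positions are those of the table, and GENCODE vM21 gave shared exons. Replicates differed beyond sampling noise (chi-square per degree of freedom 3.87 to 6.05). Alternatives were other pseudocounts, filters and scalings, voom, a block and leaving out each library.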

Additional observations from a re-analysis of the deposited data

How the results depend on the processing

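Aldh1a3 stayed called in all 14 other settings, with log2 changes of 3.22 to 4.82 and limma adjusted p from 1.1e-10 to 0.0024. The calls among the 9 genes numbered 1 with no filter, 1 with the replicate block, and 1 to 2 when single libraries were left out, as Rara no longer passed; after scaling by library totals the 2 were Aldh1a3 and Rarg. Of the 81 other genes, 9 were called with no filter and 7 to 15 when single libraries were left out. All changed genes numbered 2077 with the replicate block, although same-numbered libraries did not deviate together (r of -0.05, -0.01 and -0.07), and 1830 to 2835 when single libraries were left out. Under the block Ins1, Ins2, Bco1, Rbp7, Aldh18a1, Aldh6a1 and Aldh3a2 also no longer passed. Pseudocounts of 0.1 and 0.5 and a filter of 1 FPKM changed no call among the 9. With libraries scaled by their total, 83.4% of called genes were higher in bKO, against 44.1%, and signs turned for Rbp4 (0.0779), Rdh10 (0.0857), Rdh14 (0.0505), the glucagon gene Gcg (0.0903) and the receptor sum (0.894 FPKM). Quantile normalization turned Rbp4 (0.0475). Leaving out single libraries moved Rdh10 between -0.1137 and 0.0102 (without bKO replicate 1) and Gcg between -0.1433 and 0.0036 (without control replicate 3); none of these was called in either form, and the cause was not tested. Leaving out 1 library moved the Aldh1a3 share difference between 17.0 and 27.5 percentage points. With so few reads, Aldh1a1, Aldh1a2, Rarb and Cyp26a1 limit what can be said of them to counting intervals.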

Other observations

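The neighbours of Aldh1a3 on chromosome 7 were read within 500 kb on either side, a window set after the rise was known. 8 other genes there passed the filter and limma called none of them, with 0 at an unadjusted p under 0.05; voom on recovered reads called 1, Lrrk1. Lrrk1, whose nearer edge lies 2.5 kb away, passed the filter only through its bKO libraries and averaged 0.480 FPKM in controls against 0.697 (log2 difference 0.20, limma adjusted p = 0.24; with voom 0.52, adjusted p = 0.032). Selenos, the most abundant of them, averaged 91.9 FPKM in controls against 93.0 (adjusted p = 0.83), and Chsy1 1.26 against 0.955 (adjusted p = 0.18).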
